A study of Homo sapiens with 18 samples.

Results

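The cytosolic ribosomal proteins are the structural proteins of the ribosome that works outside mitochondria. Members were taken by gene symbol: RPL or RPS with a number and at most 1 of the letters A, L or X, plus RPLP0, RPLP1, RPLP2 and RPSA, without the RPS6K kinases, pseudogenes or RPS4Y. Of 18334 genes measured, 72 were members, 46 of the large subunit and 26 of the small one. They were read by 195 features, the single probe spots of the array. Some other genes of the family were not analysed here.

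RNA came from K562 (DNSZ K562 in the labels), an established human cell line of chronic myelogenous leukaemia cells. On 18 two-colour Agilent arrays, TNFalpha-treated cells were set against untreated cells, heteronemin-treated against untreated cells, and cells given both agents (cotreated) against TNFalpha-treated cells. Heteronemin, a compound from marine sponges, was given at 6 µM at 0 h, with DMSO for its controls, and TNFalpha, an inflammatory cytokine, at 10 ng/mL at 2 h, with water for its controls. All cells were thawed 10 days earlier and harvested at 6 h, which is 4 h after TNFalpha. Each comparison had 3 biological replicates, and each of those had 2 arrays with the dyes exchanged, so n = 3. The deposited values are log2 ratios, read here as treated over control, so the arrays give no level of any gene, and K562 identity could not be checked against marker genes. This direction is likely rather than stated: it rests on the array titles. Large changes kept their sign when the dyes were exchanged, which shows that paired arrays are oriented alike but not in which direction. Arrays of total RNA cannot tell fewer cells of a kind from less RNA per cell.

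Growing cells spend much of their transcription on ribosomes, and each ribosome takes a single copy of most of these proteins, so the genes are usually expressed in step. In vertebrates the mRNAs carry a terminal oligopyrimidine (TOP) tract, a C at the start followed by a run of C and T, through which mTOR signalling and the RNA-binding protein LARP1 control their translation. An excess of free ribosomal proteins, RPL5 and RPL11 first among them, can bind MDM2 and stabilise p53, and K562 is known to lack functional p53. Inherited loss of a copy of several of these genes causes Diamond-Blackfan anaemia, a failure of red cell production, and K562 is itself used as a model of early erythroid cells.

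Start sites of some members named in the results are shown because the TOP tract is the sequence the family shares. RPL39L, which was called in both heteronemin comparisons below, had no promoter entry and is not shown. The window of its partner RPL39 does not stand for it. Each window runs from 40 bases before the annotated start to 15 bases from it (RefSeq, GRCh38.p14). Capitals mark the pyrimidine run that opens with C at the start and goes on for at least 4 more C or T. The first 5 genes have that run: RPL39 (chrX:119791616-119791670, minus strand), RPS27 (chr1:153990722-153990776, plus strand), RPL27A (chr11:8682752-8682806, plus strand), RPS9 (chr19:54200818-54200872, plus strand) and RPL12 (chr9:127451392-127451446, minus strand). RPS27L (chr15:63157463-63157517, minus strand), RPL10L (chr14:46651767-46651821, minus strand) and RPS26 (chr12:56041878-56041932, plus strand) have no run at their annotated base. The run of RPL39 goes on to 19 bases, past the window.
RPL39: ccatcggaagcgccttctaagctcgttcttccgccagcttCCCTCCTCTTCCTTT
RPS27: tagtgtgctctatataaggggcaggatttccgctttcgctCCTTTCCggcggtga
RPL27A: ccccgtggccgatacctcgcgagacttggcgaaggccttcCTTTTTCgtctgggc
RPS9: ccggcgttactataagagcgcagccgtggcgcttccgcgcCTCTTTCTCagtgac
RPL12: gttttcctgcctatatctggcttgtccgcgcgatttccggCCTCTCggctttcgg
RPS27L: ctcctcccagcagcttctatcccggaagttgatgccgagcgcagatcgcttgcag
RPL10L: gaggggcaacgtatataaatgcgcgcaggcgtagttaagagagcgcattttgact
RPS26: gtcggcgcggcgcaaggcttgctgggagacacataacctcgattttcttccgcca

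A promoter entry was found for 60 of the 72 members, and 43 of these (71.7%) had the run, read on the gene's own strand. Over all 27305 genes with an entry, 1404 (5.14%) had it. The run depends on a start site annotated to the base. In RPS26 a pyrimidine-rich stretch lies a few bases inside the annotated start, and no run opens at that start.

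Heteronemin against untreated cells asks what the compound alone does to these mRNAs by 6 h. In the mean over 3 replicates nearly all members stayed within a few percent of the control, slightly above it, and 1 gene, RPL39L, fell. The small rise was not seen in replicate 3, where 57 of the 72 members were below 0. The median member had a mean log2 ratio of 0.065, a linear ratio of 1.046, against 0.0083 for the median of all genes. Of the 72 means 67 were above 0 and 5 below, against 9775 and 8559 of all 18334 genes. The test called 1 member lower and none higher (limma, Benjamini-Hochberg adjusted p under 0.05 over all genes), against 4.87% of all genes in either direction (2.29% higher, 2.58% lower). At an unadjusted p under 0.05 there were 6 of 72 members, against 3333 of all 18334 genes, so the members had the smaller share. They were RPL39L, RPL27A, RPS27L and RPS26 with negative means, and RPS9 and RPL12 with positive ones.

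RPL39L encodes a close copy of RPL39, a small protein at the exit tunnel of the large subunit. The copy is known from testis and from some cancers. RPL39L had log2 ratios of −0.64, −0.31 and −0.30 in heteronemin-treated against untreated cells. All 6 arrays were below 0, between −0.71 and −0.17, whichever dye carried the treated RNA. The mean was −0.42 ± 0.19 (SD, n = 3; limma adjusted p = 0.0263), a linear ratio of 0.748. RPL39 had 0.13, 0.12 and −0.055, a mean of 0.068 ± 0.106 (SD, n = 3). The call of RPL39L was lost without replicate 2 (limma adjusted p = 0.329) and without replicate 3 (adjusted p = 0.168), though its mean then was −0.47 and −0.48. Few of all genes were called in either of those runs, so the loss is not particular to RPL39L.

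RPL27A, a large subunit protein, had −0.24, −0.35 and −0.13, a mean of −0.24 ± 0.11 (SD, n = 3; limma adjusted p = 0.0599). RPS27L, a copy of RPS27 known as a p53 target, had −0.23, −0.36 and −0.097, a mean of −0.23 ± 0.13 (adjusted p = 0.103 in limma, n = 3). RPS26, which lines the mRNA exit channel, had −0.040, −0.36 and −0.30, a mean of −0.23 ± 0.17 (adjusted p = 0.141 in limma, n = 3). All 3 were below 0 in every replicate mean and none passed the test. RPL27A was below 0 on all 6 arrays. In replicate 1, RPS27L was at 0.064 on the array with treated RNA in Cy5 and at −0.53 on the Cy3 array, and RPS26 at 0.041 and −0.12. Without replicate 1, which was near 0 for RPS26, that gene had a mean of −0.33 and passed (limma adjusted p = 0.00878). The fit without replicate 1 called more of all genes too, so the pass is not particular to RPS26. RPL23 (−0.0096) was the other member with a mean below 0.

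At the upper end, RPS9, a small subunit protein at the mRNA entry channel, had 0.38, 0.18 and 0.15, a mean of 0.23 ± 0.12 (SD, n = 3; limma adjusted p = 0.191). All 3 values were above 0. Without replicate 1, where more of all genes were called, the mean was 0.16 and passed (limma adjusted p = 0.0338). RPL13A, also known for a role in silencing inflammatory mRNAs, had 0.30, 0.10 and 0.013. RPS23, a protein of the decoding centre, had 0.24, 0.20 and −0.042, and RPS3, at the entry channel, had 0.25, 0.13 and 0.011. RPL12, near the factor-binding stalk, had 0.12, 0.097 and 0.071, the most even of the higher members named here. None of these passed.

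**Figure D1:**
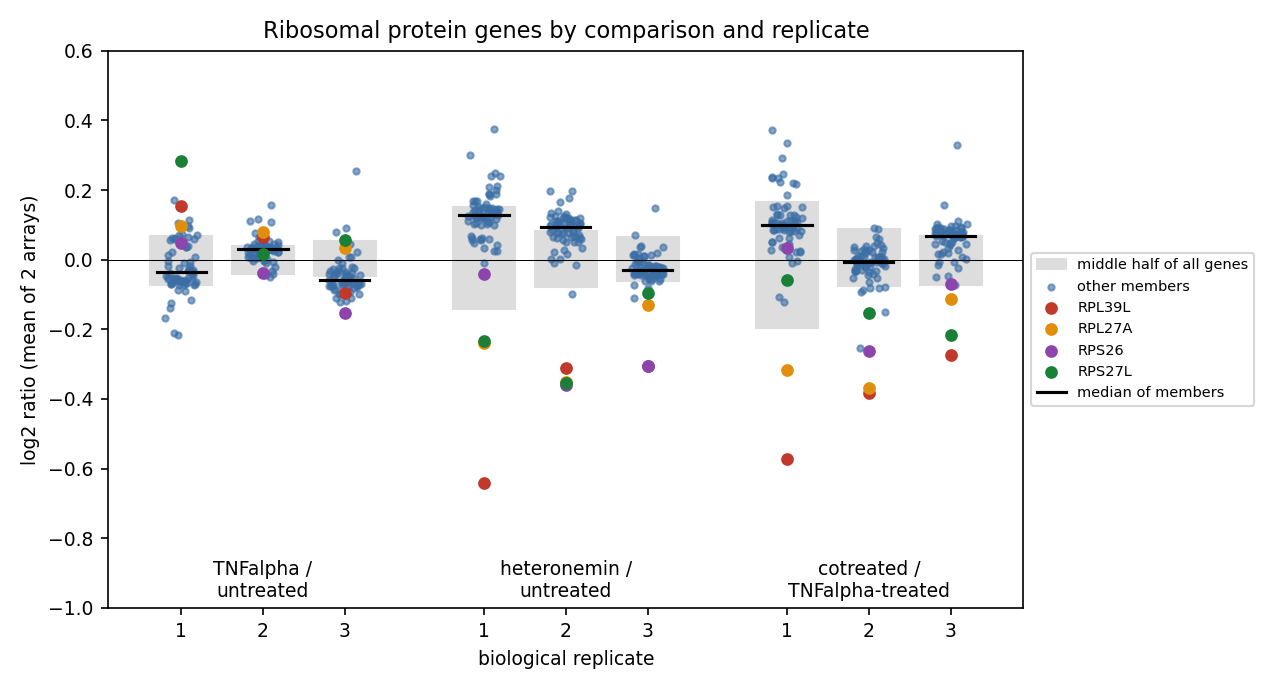
Log2 ratio of each of the 72 members (points, mean of 2 arrays) in the 3 biological replicates of each comparison, with the median of the members (black line) and the middle 50% of all genes (grey). In the heteronemin comparisons most points form a narrow band whose height differs between replicates, the points of TNFalpha replicate 1 spread more widely, and RPL39L, RPL27A, RPS27L and RPS26 have the lowest means in both heteronemin comparisons.

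Most members shifted together between replicates. In heteronemin-treated against untreated cells the median member was at 0.13 in replicate 1, 0.093 in replicate 2 and −0.029 in replicate 3. There 67, 65 and 15 of the 72 members were above 0, so the shift had 1 sign in replicates 1 and 2 and the other in replicate 3. Within a replicate the members lay close together: their interquartile range was 0.052, 0.050 and 0.035, against 0.29, 0.16 and 0.13 for all genes. The median SD of a member over its 3 replicates was 0.086, and 0.036 once each replicate's median of the members was taken away. In all 3 replicates 14 members were above 0 and 4 below, 19.4% and 5.56% of the members, against 20.6% and 19.2% of all genes. Without replicates 1, 2 and 3 the members' median was 0.032, 0.049 and 0.11.

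Cotreated against TNFalpha-treated cells asks what heteronemin does where the cytokine is present, and shares no kind of RNA with the heteronemin arrays. RPL39L fell, and so did the mean of RPL27A, through 1 of its 2 features. The means of most other members again lay slightly above 0, though in replicate 2 the median member was at −0.0068. Over the means the median member was at 0.052, a linear ratio of 1.037, against 0.0081 for all genes. Of the 72 means 62 were above 0 and 10 below, against 9706 and 8628 of all 18334 genes. The limma test called 2 members lower and none higher, against 6.55% of all genes in either direction (3.39% higher, 3.15% lower). At an unadjusted p under 0.05 there were 3 of 72 members, these 2 and RPL12, against 3883 of all 18334 genes, again the smaller share.

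RPL39L had −0.57, −0.38 and −0.27 in cotreated against TNFalpha-treated cells, and its 6 arrays ran from −0.69 to −0.20. The mean was −0.41 ± 0.15 (SD, n = 3; limma adjusted p = 0.0239), a linear ratio of 0.753. RPL27A had −0.32, −0.37 and −0.11, with all 6 arrays below 0, a mean of −0.27 ± 0.13 (SD, n = 3; limma adjusted p = 0.0336) and a linear ratio of 0.832. Both genes were below 0 in every replicate of both heteronemin comparisons. Same-numbered replicates of these comparisons deviated together (correlations over genes of 0.78, 0.63 and 0.62), so the 2 comparisons are not independent repeats. RPL39L lost its call without replicate 2 (limma adjusted p = 0.322) or replicate 3 (0.154), and RPL27A without replicate 1 (0.0584), 2 (0.399) or 3 (0.125). Without replicate 2 or 3 few of all genes were called, whereas without replicate 1 more were called than in the main fit.

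RPS27L had −0.059, −0.15 and −0.22 in cotreated against TNFalpha-treated cells (mean −0.14 ± 0.08, SD, n = 3; limma adjusted p = 0.271). RPS26 had 0.034, −0.26 and −0.070 (mean −0.099 ± 0.150, SD, n = 3; limma adjusted p = 0.501), so its replicates lay on both sides of 0. RPL12 had 0.24, 0.092 and 0.089 (mean 0.139 ± 0.084, SD, n = 3; limma adjusted p = 0.0956), above 0 in all 3. RPL13A had the highest mean, 0.144 ± 0.166 (SD, n = 3), with 0.33, 0.028 and 0.070. RPL31, at the tunnel exit, had 0.13, 0.039 and 0.16. RPS9 had 0.37, 0.021 and −0.049, a mean that rested on replicate 1 and was −0.014 without it.

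The median member was at 0.0995, −0.0068 and 0.069 in replicates 1 to 3, with 65, 30 and 61 of 72 members above 0. Without replicates 1, 2 and 3 it was 0.032, 0.085 and 0.045. Here the replicate near 0 was the second, whereas in heteronemin against untreated cells the third was below 0. In all 3 replicates 26 members were above 0 and 3 below (36.1% and 4.17%), against 18.7% and 19.6% of all genes. The members' interquartile range was 0.066, 0.046 and 0.053, against 0.36, 0.16 and 0.14 for all genes.

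TNFalpha against untreated cells asks what the cytokine does to these mRNAs within 4 h. No member passed the limma test, and none had an unadjusted p under 0.05. Of all genes 0% passed, and 315 had an unadjusted p under 0.05, so the test made no call on these arrays. The spread was pooled over the 3 comparisons. The median SD of a gene was 0.070 here, against 0.106 and 0.125 in the heteronemin and cotreated comparisons. The highest mean of any gene, 4.28, also went without a call, so a missing call does not show a missing effect. Untreated cells are also the control of the heteronemin arrays, and TNFalpha-treated cells that of the cotreated ones. The labels do not say whether the same RNA extracts were used. The median member was at −0.021 (linear ratio 0.986) and the member means ran from −0.069 to 0.12. The highest was RPS27L, with 0.28, 0.016 and 0.057 (mean 0.119 ± 0.145, SD, n = 3). RPL3L had 0.0082, −0.0022 and 0.26. RPL29 had 0.17, 0.038 and 0.022, and RPL27A had 0.097, 0.079 and 0.032, both above 0 in all 3 replicates. The lowest means were those of RPL3 (−0.069), RPL19 (−0.065), RPS4X (−0.065) and RPL27 (−0.063). RPS4X, with −0.070, −0.043 and −0.082, and RPL27, with −0.059, −0.050 and −0.079, were below 0 in all 3. RPL39L had 0.16, 0.064 and −0.097. Its mean of 0.041 ± 0.128 lay within the spread of its replicates. In all 3 replicates 4 members were above 0 and 7 below (5.56% and 9.72%), against 13.3% and 12.4% of all genes. The members' medians were −0.035, 0.031 and −0.059 in replicates 1 to 3, on both sides of 0. Their interquartile range was 0.11, 0.027 and 0.041, against 0.14, 0.080 and 0.099 for all genes, so in replicate 1 the members spread nearly as widely as other genes.

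**Figure D2:**
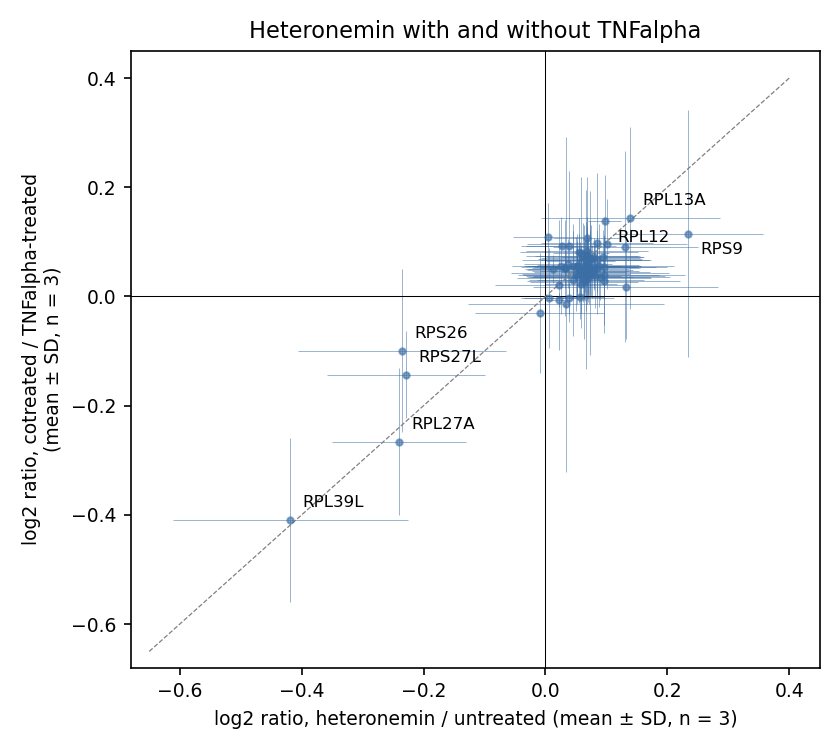
Mean log2 ratio of each member in heteronemin against untreated cells (x axis) and in cotreated against TNFalpha-treated cells (y axis), with bars of 1 SD over 3 replicates and a dashed line of equal values. Most members form 1 cluster just above 0 on both axes, and RPL39L, RPL27A, RPS27L and RPS26 lie below 0 on both.

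The effect of heteronemin in the presence of TNFalpha, minus its effect in cells without the cytokine, was tested as a contrast in the same limma fit. No member passed, with or without the replicate number as a block, and none had an unadjusted p under 0.05. Of all genes 0% passed and 475 had an unadjusted p under 0.05. The difference for RPL39L was 0.0096, with means of −0.41 in cotreated against TNFalpha-treated and −0.42 in heteronemin-treated against untreated cells. For RPL27A it was −0.026, for RPS27L 0.086, and for RPS26 0.14. RPL31, with the smallest p of the members, differed by 0.105, and RPS23 (−0.115) and RPS9 (−0.119) had the lowest differences. A p that misses the threshold does not show that the 2 effects are alike. Over the 72 members the means of the heteronemin comparisons had a Pearson correlation of 0.89 and a Spearman rho of 0.41, and over all genes the Pearson correlation was 0.84. These are given as a description, since genes on the same arrays are not independent. Same-numbered replicates of the 2 comparisons also deviated together.

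By position in the ribosome, the 2 subunits had similar medians. Of 46 large subunit genes 43 had a mean above 0 in heteronemin against untreated cells (median 0.060, 1 lower call), and 38 in cotreated against TNFalpha-treated cells (median 0.052, 2 lower calls). Of 26 small subunit genes 24 were above 0 in each, with medians of 0.070 and 0.055 and no call. The stalk proteins RPLP1 and RPLP2, which recruit elongation factors, had means of 0.027 and 0.082 under heteronemin and 0.093 and 0.037 in cotreated cells. RPLP1 had 0.093, 0.089 and 0.097 in cotreated cells, an SD of 0.0039, and did not pass (limma adjusted p = 0.241). Its arrays were less even: in replicate 2 they were at 0.25 with cotreated RNA in Cy5 and −0.074 with it in Cy3. RPL5 and RPL11, which form the 5S particle with the 5S rRNA, had 0.022 and 0.059 under heteronemin and −0.0058 and 0.022 in cotreated cells.

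The 4 genes at the mRNA entry and decoding site, RPS2, RPS3, RPS9 and RPS23, had the highest median of the role groups under heteronemin, 0.13, and 0.067 in cotreated cells. By replicate the group's median was 0.24, 0.16 and −0.015 under heteronemin, with the sign of the whole family in each. In cotreated cells it was 0.25, −0.034 and −0.020, so the 0.067 rested on replicate 1, and in replicate 3 the whole family was at 0.069. Their means in heteronemin-treated cells were 0.073, 0.13, 0.23 and 0.13, all without a call. At the mRNA exit RPS14 and RPS28 had 0.065 and 0.058, beside −0.23 for RPS26. The 8 tunnel exit genes had a median of 0.058 under heteronemin, all above 0, and 0.043 in cotreated cells. Of the Diamond-Blackfan anaemia genes 16 were measured, and 15 had a mean above 0 under heteronemin (median 0.058) and 14 in cotreated cells (median 0.058). The exception under heteronemin was RPS26, and none of the 16 passed in any comparison.

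The 4 gene copies, RPL39L, RPS27L, RPL10L and RPL3L, did not move as a set, and RPL39L, described above, was the one that fell. RPS27L had −0.23 under heteronemin and −0.14 in cotreated cells, beside 0.038 and 0.092 for RPS27. RPL10L, known from testis, had 0.062 and 0.075, near RPL10 with 0.062 and 0.035. RPL3L, known from heart and skeletal muscle, had 0.034 ± 0.160 and −0.015 ± 0.306 (SD, n = 3), with cotreated values of −0.12, −0.25 and 0.33 on both sides of 0. RPL3 had 0.10 ± 0.13 and 0.097 ± 0.082 (SD, n = 3). Probe sequences were not used here, and the arrays cannot tell a copy from a near-identical partner or pseudogene that binds the same probe. RPS27 and RPS27L differ at the start: the window above has a 7-base run in RPS27 and none in RPS27L. The 43 members with an annotated run had medians of 0.070 under heteronemin and 0.054 in cotreated cells. The 17 with an entry but no run had 0.058 and 0.051. This split follows the annotated start base, which can miss a tract by a few bases, so it cannot show whether the tract matters.

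Most features of a gene gave like values, and RPL27A and RPS26 were exceptions. Of the 72 members 51 had several features, up to 14 for RPL21. The median distance between a gene's lowest and highest feature mean was 0.069 under heteronemin, 0.041 in cotreated and 0.071 in TNFalpha-treated cells. It was over 0.2 in 7 genes under heteronemin (RPL13A, RPL22, RPL23, RPL27A, RPL31, RPL9 and RPS26), in 4 in cotreated cells (RPL13A, RPL22, RPL27A and RPS2) and in none under TNFalpha.

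The features named next were chosen after their values were seen. Each was fitted singly among 31332 features, of which 4.54% passed under heteronemin (2.15% higher, 2.38% lower) and 6% in cotreated cells (3.3% higher, 2.7% lower). Of the 195 member features 2 passed in each, all lower: the RPL39L feature in both, RPS26 feature 1 under heteronemin and RPL27A feature 1 in cotreated cells. RPL27A has 2 features that cite the same RefSeq transcript. Feature 1 had −0.58, −0.79 and −0.18 under heteronemin (mean −0.52, limma adjusted p = 0.0515, and 0.0223 with the replicate block) and −0.78, −0.75 and −0.29 in cotreated cells (mean −0.61 ± 0.27, SD, n = 3; limma adjusted p = 0.0238). Feature 2 had 0.10, 0.093 and −0.077 under heteronemin and 0.14, 0.020 and 0.067 in cotreated cells, close to the rest of the family. The call of RPL27A therefore rests on 1 of its 2 features.

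RPS26 has 4 features, again all citing 1 transcript. Feature 1 had −0.34, −0.68 and −0.59 under heteronemin (mean −0.54 ± 0.18, SD, n = 3; limma adjusted p = 0.0292). Feature 3 had −0.060, −0.67 and −0.57 (limma adjusted p = 0.118, and 0.0224 with the replicate block). Features 2 and 4 had means of 0.059 and −0.023. In cotreated cells feature 1 had 0.053, −0.41 and −0.14, on both sides of 0. There its sign changed with the dye: the mean was 0.15 on the arrays with cotreated RNA in Cy5 and −0.48 on those with it in Cy3. RPL13A owed its high mean to its feature 4, which cites an expressed sequence tag and not a RefSeq transcript, with 0.69, 0.12 and 0.18 under heteronemin and 1.03, 0.14 and 0.081 in cotreated cells. Its other 3 features had means between 0.062 and 0.088 under heteronemin. RPL39L has 1 feature.

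**Figure D3:**
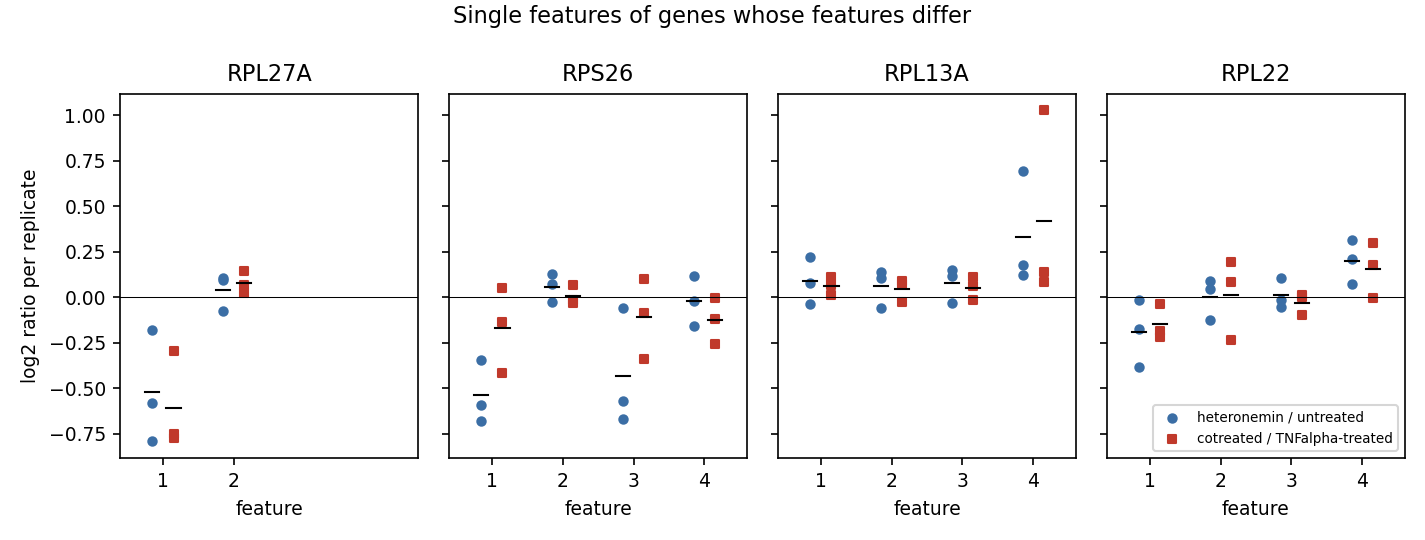
Log2 ratio of every feature of RPL27A, RPS26, RPL13A and RPL22 in each replicate (points) with the mean over 3 replicates (bar), for heteronemin against untreated and cotreated against TNFalpha-treated cells. Feature 1 of RPL27A and features 1 and 3 of RPS26 lie below the other features of the same gene, and feature 4 of RPL13A lies above them in replicate 1.

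The family's median also differed between the dyes. The members' median was higher on the array with the treated RNA in Cy5 in 7 of 9 dye-exchanged pairs, by 0.092 to 0.16. In replicate 1 of heteronemin against untreated and of cotreated against TNFalpha-treated cells the difference was −0.16 and −0.044. For the median of all genes the same difference was between −0.054 and −0.0080. Under TNFalpha the median member was at 0.046 with the treated RNA in Cy5 and at −0.088 with it in Cy3, so the sign was that of the dye. In both heteronemin comparisons the median over the 3 replicates was above 0 with either dye: 0.082 in Cy5 and 0.047 in Cy3 under heteronemin, and 0.086 and 0.017 in cotreated cells. Single Cy3 arrays lay on both sides of 0: the members' median was 0.21, 0.036 and −0.105 in replicates 1 to 3 under heteronemin and 0.12, −0.088 and 0.023 in cotreated cells. Each replicate mean holds 1 array of each orientation, and a constant dye effect cancels in it.

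**Figure D4:**
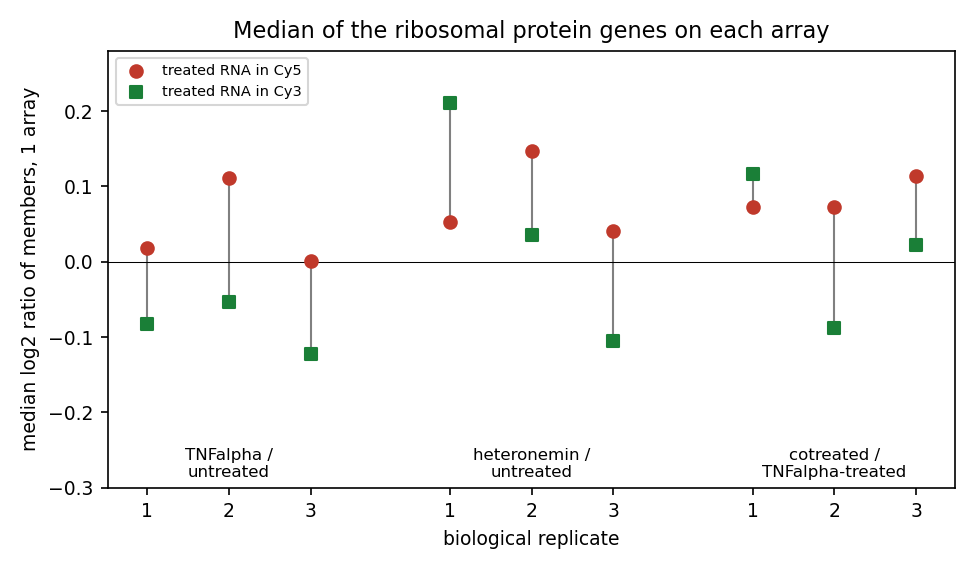
Median log2 ratio of the 72 members on each of the 18 arrays, with the dye that carried the treated RNA shown by colour and shape and the 2 arrays of a replicate joined by a line. The Cy5 array lies higher in 7 of 9 pairs, and replicate 1 of both heteronemin comparisons runs the other way.

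Other genes of the ribosome pathway, in lists chosen by role, gave other values. Of the ribosomal genes outside the symbol rule 5 of 7 were measured and none passed. FAU, which encodes a small subunit protein fused to a ubiquitin-like one, and RPL36AL had means of 0.083 and 0.063 under heteronemin, near the members' median. RPL22L1 had 0.18 and RPL26L1 had −0.099. RPL7L1 had −0.093 under heteronemin, and −0.40, −0.16 and −0.29 in cotreated cells (mean −0.28 ± 0.12, SD, n = 3; limma adjusted p = 0.0541). The 22 translation factors and other TOP mRNAs had medians of 0.053 and 0.032 in the 2 heteronemin comparisons, beside 0.065 and 0.052 for the members. In that list 13 of 14 genes with an entry (92.9%) had the start run. One gene rose in each, EIF4A2, an RNA helicase of translation initiation, with 0.57 ± 0.03 under heteronemin (SD, n = 3; limma adjusted p = 0.00413) and 0.53 ± 0.17 in cotreated cells (adjusted p = 0.00421). Without replicate 2 or 3, where few of all genes were called, the limma adjusted p of EIF4A2 lay between 0.141 and 0.196.

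Genes that build the subunits lay lower. Of 24 assembly factors 18 had a mean below 0 in each heteronemin comparison, with medians of −0.17 and −0.19. Of all 18334 genes 8559 and 8628 had a mean below 0. The limma test called 2 of the 24 lower under heteronemin and 3 in cotreated cells, against 2.58% and 3.15% of all genes. RRS1, which in yeast brings the 5S particle into the large subunit together with RPF2, fell under heteronemin (−1.11 ± 0.59, SD, n = 3; limma adjusted p = 0.0336) and in cotreated cells (−1.09 ± 0.57, adjusted p = 0.0293). RPF2 fell under heteronemin (−0.60, limma adjusted p = 0.0287) and had −0.44 in cotreated cells (adjusted p = 0.072). RPL5 and RPL11, the proteins of that particle, stayed between −0.006 and 0.06, as given above. GRWD1, whose yeast relative is a chaperone of RPL3, and MDN1, an ATPase of large subunit maturation, fell in cotreated cells (−0.45 and −0.49, limma adjusted p = 0.0259 and 0.0483), while RPL3 had 0.097 there. GRWD1 had −0.36 under heteronemin (limma adjusted p = 0.0702, and 0.0166 with the replicate block). Each of these calls was lost without replicate 2 (limma adjusted p between 0.182 and 0.339) or replicate 3 (0.158 to 0.328), runs that called few of all genes. That of MDN1 was also lost without replicate 1 (0.0617).

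The mitochondrial ribosomal proteins, which the cell makes from nuclear genes for a separate ribosome, also lay lower than the cytosolic ones. Of 76 genes 65 had a mean below 0 under heteronemin and 64 in cotreated cells, with medians of −0.17 and −0.15. Over all 18334 genes the counts below 0 were 8559 and 8628. There were 14 lower calls and 1 higher call (MRPL10) under heteronemin, and 14 lower calls in cotreated cells, beside 2.58% and 3.15% of all genes called lower. Without replicate 2 the limma test called 2 of all genes in each comparison, and without replicate 3 it called 20 and 8. MRPS17 had −0.91 and −0.77 (limma adjusted p = 0.000877 and 0.0017) and MRPL11 had −0.32 and −0.27 (adjusted p = 0.00343 and 0.00514). Of the 68 with a promoter entry 6 (8.82%) had the start run. The difference between these lists and the members is a description and was not tested.

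Among 14 measured regulators of TOP mRNA translation, SESN2, an inhibitor of mTORC1, rose under heteronemin (1.48 ± 0.29, SD, n = 3; limma adjusted p = 0.000721) and in cotreated cells (1.37 ± 0.26, adjusted p = 0.000969). EIF4E, the cap-binding protein, fell in both (−0.31 and −0.34, limma adjusted p = 0.0264 and 0.0161). Without replicate 2 neither passed, with adjusted p of 0.122 and 0.118 for SESN2 and 0.417 and 0.269 for EIF4E, and EIF4E also did not without replicate 3 (0.189 and 0.156). DDIT4, another mTORC1 inhibitor, had −0.57, 1.54 and 1.5 under heteronemin and −0.58, 1.23 and 1.27 in cotreated cells, with replicate 1 opposite to the other two, and did not pass. Apart from SESN2 and EIF4E no regulator passed in either comparison. Ribosome occupancy was not measured, so the arrays say nothing of translation.

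**Figure D5:**
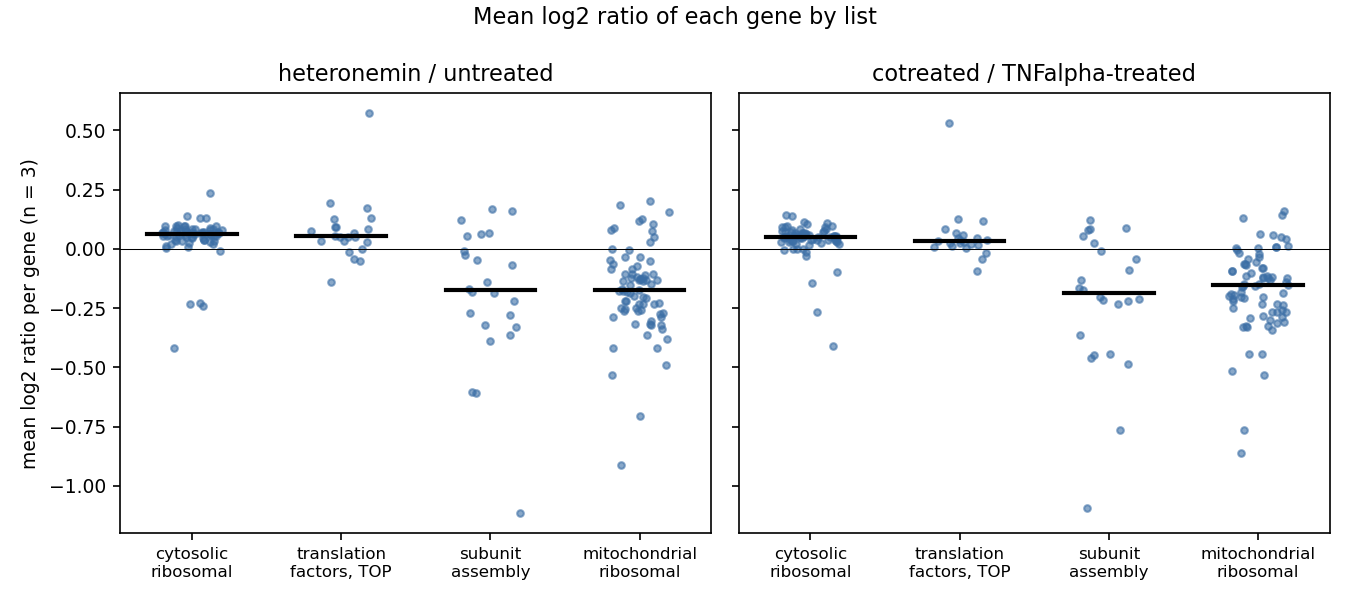
Mean log2 ratio (n = 3) of each gene in 4 lists, for heteronemin against untreated cells (left) and cotreated against TNFalpha-treated cells (right), with the list's median as a bar. The 72 cytosolic ribosomal proteins form a narrow band just above 0 with a few genes below it, and the medians of the assembly factors and mitochondrial ribosomal proteins lie between −0.15 and −0.19.

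Closeness to the family's own median was also counted. Within 0.1 of it lay 67 of 72 members (93.1%) under heteronemin, 68 (94.4%) in cotreated and 70 (97.2%) in TNFalpha-treated cells. Of all genes 61.3%, 57.1% and 90.2% lay within 0.1 of the median of all genes. The members outside that window under heteronemin were RPL39L, RPL27A, RPS26, RPS27L and RPS9, and in cotreated cells RPL39L, RPL27A, RPS27L and RPS26. No member reached a 2-fold mean in any comparison. Genes with several features are averages over more spots, which narrows their spread. Over single features the members' interquartile range was 0.056, 0.056 and 0.046 under heteronemin, against 0.31, 0.18 and 0.14 for all features. Why the members lay close together was not tested.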

How the data were processed

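Per the submitters' processing notes the authors used limma to make the deposited log2 ratios, 1 per feature and array. The limma version and any background or scaling step were not given in the sources used here. Without intensities the depth is unknown, and precision is limited by the number of arrays. Left out were 93 features with several genes and 13795 with no gene in the platform annotation. The other 31332 of 45220 were averaged to 18334 genes, and the 2 dye-exchanged arrays of a replicate to 9 values per gene. A limma fit (3.58.1, R 4.3.3) took a mean for each comparison and a pooled, moderated spread with 2.73 prior degrees of freedom. Tests were two-sided, with Benjamini-Hochberg adjustment over all genes and a threshold of 0.05. The fit was tested on simulated data. The members and lists were chosen with earlier results of these data known, and lists are given by counts and medians, with no test. Named members are those called, the 5 smallest p, the 4 highest and 4 lowest means per comparison, the role groups and the copies with their partners. Same-numbered replicates of the heteronemin and cotreated comparisons deviated together (correlations over genes of 0.78, 0.63 and 0.62), unlike those of TNFalpha (−0.33 to 0.031). Alternatives changed the features, centring, scaling, dyes, prior, replicates, spread, technical repeats, member rule and replicate block. Start runs were read from RefSeq promoter windows (GRCh38.p14).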

Additional observations from a re-analysis of the deposited data

How the results depend on the processing

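TNFalpha and the contrast between the heteronemin effects called 0 members in each alternative run. For heteronemin against untreated cells the 1 member called became 2 with arrays centred and scaled or with 18 arrays and duplicateCorrelation (RPL27A added). It became 0 on the arrays with treated RNA in Cy3, with a trended robust prior or fitted alone. Leaving out a replicate gave 0 to 3. For cotreated against TNFalpha-treated cells the 2 became 5 on the Cy5 arrays (RPL12, RPL31 and RPL3L higher) and 1 on the Cy3 arrays. Either run holds a single dye orientation, so the dye difference of the family's median given above does not cancel in it. The count became 0 with the trended robust prior or fitted alone. Leaving out a replicate gave 0 to 1. The trended prior and the fits of 1 comparison called 0 of all genes too. Without replicates 1, 2 and 3, 2540, 2 and 20 of all genes were called under heteronemin, against 892, and 3397, 2 and 8 in cotreated cells, against 1200. With duplicateCorrelation 1731 were called under heteronemin and 2173 in cotreated cells. With the replicate block 1 member was called under heteronemin and 2 in cotreated cells, as without it, and 0 elsewhere. Of the other results run, the block changed the calls of GRWD1 and of the 2 single features given above.

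The members' median under TNFalpha was 0.046 on Cy5 arrays and −0.088 on Cy3 arrays. In cotreated cells RPL3L was called higher on Cy5 arrays, while its mean in the main fit was −0.015. Other reversals were looked for only in a set of named genes and features. They were as follows, all of values not called in the main fit. In cotreated cells RPS26 was 0.13 on Cy5 arrays, its feature 1 was 0.15 and its feature 3 was 0.33, or −0.21 to 0.0069 with a replicate left out, and RPS9 was −0.014 to 0.20 with a replicate left out. In the contrast RPL39L was −0.021 to 0.051 with a replicate left out, and −0.066 on Cy3 arrays, RPL27A was 0.0059 with scaling and 0.00052 on Cy3 arrays, and RPS26 was −0.033 on Cy3 arrays. The cause was not tested. The feature fits and the restriction to features with a RefSeq accession were added after seeing the data.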
